A study of Mus musculus with 5 samples.

Results

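The step examined is the one between day 3 and day 6 of adipogenesis in 3T3-L1 cells kept in P-G3, a PAMAM (polyamidoamine) polymer: the kept cells of the day 6 P-G3 library were set against those of the day 3 P-G3 library. A cell barcode was kept when 500 or more genes were detected in it and no more than 20% of its unique molecular identifiers (UMIs, 1 per captured RNA molecule) came from mitochondrially encoded genes. This gave 3546 cells on day 6 and 3893 on day 3, together 7439 of the 16713 kept cells of the series. 3T3-L1 is a clonal mouse fibroblast line that turns into adipocytes on hormonal induction, and the labels name immature adipocytes and adipocytes on both days and lipogenic adipocytes on day 6 only. Cells grown to confluence received a cocktail of dexamethasone, insulin and isobutylmethylxanthine in serum and were then held in insulin. P-G3 was in the medium at 10 µg/mL from the start of induction, and the day 6 untreated and day 3 untreated libraries received the same cocktail without it. Each of these 4 groups, and the uninduced day 0 cells that complete the series, is a single library, so differences between them have no replicate check and carry no p-value. Intervals cover counting error only.

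Adipocyte formation runs in waves. Hormones first induce C/EBP beta and C/EBP delta, the cells pass through a few clonal divisions, and PPAR gamma with C/EBP alpha then switch on the genes of lipid storage and hormone secretion. Late in the course the cells leave the cell cycle, fill with triglyceride droplets, become able to take up glucose on insulin and secrete adiponectin, adipsin and resistin.

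For each library, UMIs of its kept cells were added up and scaled to counts per 1000000 (CPM). The kept cells held 107429490 UMIs on day 6 P-G3 and 179221992 on day 3 P-G3, with 88432894 in the day 6 untreated and 139767386 in the day 3 untreated library. The day 6 P-G3 library kept 62.0% of its 5719 barcodes, against 98.5% of 3954 for day 3 P-G3, and its kept cells had a median of 16657.5 UMIs, against 40306. Of the day 6 P-G3 cells 47.0% had fewer than 10000 UMIs, and these held 4.05% of the UMIs, against 5.60% and 0.670% on day 3 P-G3, so larger cells decide the sums. The 2 libraries shared 7 barcodes. In such sums, fewer cells of a type and less RNA per cell cannot be told apart.

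The 5145 genes that reached 20 CPM in one P-G3 library or both included 361 that were 2-fold or more higher on day 6 (7.02%) and 308 that were 2-fold or more lower (5.99%). A ratio is given throughout as log2((CPM + 1)/(CPM + 1)), day 6 over day 3, so 1 stands for a 2-fold difference, and a gene is called only past that size. The median ratio of all 5145 genes was 0.02, which became 0.08 under TMM scaling (trimmed mean of M values) and 0.13 under median-of-ratios scaling. These scalings gave 417 higher and 284 lower genes, and 472 higher and 269 lower genes. Such scaling shifts all ratios by nearly the same small amount. A gene called at 2-fold therefore could not turn its direction, whereas ratios within 0.13 of 0 can.

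Several secreted proteins had the highest ratios. Ghrh, which encodes growth hormone-releasing hormone and is best known from the hypothalamus (ENSMUSG00000027643, on chromosome 2 between 157329497 and 157347506, GRCm38), had 679 CPM on day 6 P-G3 and 1.23 CPM on day 3 P-G3, and 449 and 0.594 CPM in the day 6 and day 3 untreated libraries. It was near absent on day 3 in both cultures and its ratio under P-G3, 8.25, was the highest of all 5145 genes. The 95% interval of its CPM ratio, for counting error only, ran over log2 values of 8.92 to 9.31. RefSeq lists 2 start sites for Ghrh on GRCm38.p6, and the window of the downstream one, chr2:157337377-157337676 on the minus strand, is shown because it holds the single match to the TATA box, TATAAA, in capitals, found in either. The windows run from 250 bases before to 50 bases after a start site and were searched on both strands; 14.2% of the first windows of 27025 genes hold TATAAA.
Ghrh: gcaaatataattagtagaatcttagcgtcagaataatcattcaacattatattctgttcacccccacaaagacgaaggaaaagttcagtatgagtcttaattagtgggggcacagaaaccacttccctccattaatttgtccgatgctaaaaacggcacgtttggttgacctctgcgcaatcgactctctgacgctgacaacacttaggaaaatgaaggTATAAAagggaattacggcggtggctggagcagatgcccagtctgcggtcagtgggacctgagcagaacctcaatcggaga

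Cfd, which encodes adipsin, a serine protease of the complement system secreted by fat cells (ENSMUSG00000061780, chromosome 10, 79890853 to 79892655), stood at 1535 CPM on day 6 P-G3, against 64.4 CPM on day 3 P-G3, and at 902 against 46.9 CPM without the polymer. Adipoq, which encodes adiponectin (ENSMUSG00000022878, chromosome 16, 23146536 to 23158028), stood at 849 against 63.0 CPM with P-G3, and at 459 against 32.6 CPM untreated. Both genes were high in both day 6 libraries and low in both day 3 libraries, and in each step the ratio was close: 4.55 with P-G3 and 4.24 untreated for Cfd, 3.73 and 3.78 for Adipoq. Retn, which encodes resistin, stood at 1659 CPM on day 6 P-G3 and 283 CPM on day 3 P-G3 (2.55). Leptin, the satiety hormone of fat, was barely detected: Lep had 0 UMIs on day 6 P-G3, which allows up to 0.0279 CPM, and 3 UMIs on day 3 P-G3. The other genes among the 10 highest were Selenbp1 (4.55), Cdsn, which encodes corneodesmosin (4.46), Apoc1, Scd1, Cystm1 (3.78), Adig and Gpt, which encodes alanine aminotransferase (3.62).

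Of the 18 genes on the list of secreted adipokines, 13 reached 20 CPM, and 8 of these were at least 2-fold higher and none lower, with a median of 2.12. Apoc1, an apolipoprotein gene (3.89), Apln, which encodes the peptide apelin (2.19), Vegfa, the vascular growth factor gene (2.12), and Agt, which encodes angiotensinogen (1.77), were among them. Nampt, which encodes the enzyme visfatin of NAD salvage, stood at 144 CPM on day 6 P-G3 and 80.3 CPM on day 3 P-G3 (0.83), under the 2-fold line. Apoe (0.55), Metrnl (0.63), Angptl4 (0.42) and Lcn2 (0.42) were also within 2-fold, and Lep, Rbp4, Sfrp5, Igf1 and Fgf21 did not reach 20 CPM.

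All 20 counted members of the 22 adipocyte identity genes were at least 2-fold higher on day 6, with ratios between 1.17 and 4.55 and a median of 2.10. The 2 not counted were Adrb3 and Lep. The highest after Cfd and Adipoq were Adig, a small adipocyte membrane protein gene (3.68), Mrap, the accessory protein of the melanocortin 2 receptor (3.46), and Slc2a4, which encodes the insulin-responsive glucose transporter GLUT4. Slc2a4 stood at 39.1 CPM on day 6 P-G3 and 4.57 CPM on day 3 P-G3 (2.85). Fabp4, the fatty acid carrier that is already abundant early, had 28993 CPM on day 6 P-G3 and 10918 CPM on day 3 P-G3 (1.41). Among cells with at least 10000 UMIs the median of the list was 2.11, and with equal weight per cell it was 2.33.

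**Figure D1:**
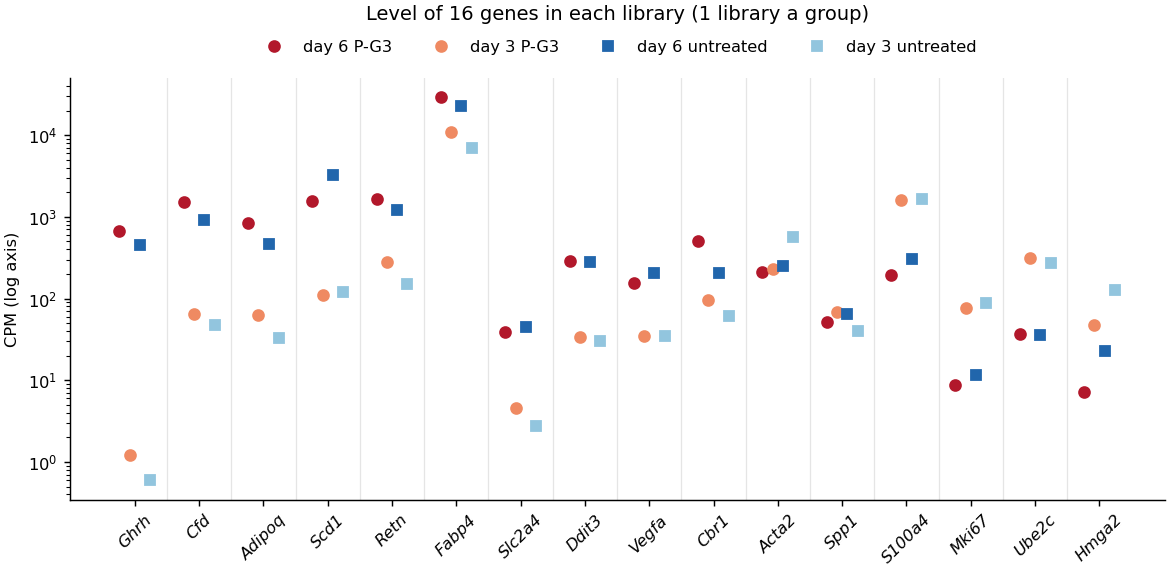
Level of 16 genes (x axis) in CPM on a log y axis, 1 point a library: circles for day 6 P-G3 and day 3 P-G3, squares for day 6 untreated and day 3 untreated. Ghrh is at 679 CPM on day 6 P-G3 and 1.23 CPM on day 3 P-G3, whereas Acta2 lies at 209 and 229 CPM in these libraries.

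The transcription factors were less uniform. Pparg, the master regulator of fat cell formation, stood at 286 CPM on day 6 P-G3 and 112 CPM on day 3 P-G3 (1.34), and Cebpa, its partner, at 81.8 and 29.0 CPM (1.46). Klf15, a factor of late adipogenesis and of GLUT4 expression, stood at 43.9 CPM on day 6 P-G3 and 3.60 CPM on day 3 P-G3 (3.29). Ddit3, which encodes CHOP, a stress-induced C/EBP relative that can block other C/EBP factors, stood at 291 and 34.2 CPM (3.05). Nr1h3, the gene of the oxysterol receptor LXR alpha, was also called higher (1.08). Of the early factors, Cebpb stood at 568 CPM on day 6 P-G3 and 302 CPM on day 3 P-G3 (0.91) and Cebpd had a ratio of -0.46, both within 2-fold, and Klf5, a factor of the early phase, was lower at -1.35. Thus 5 of the 11 counted factors were at least 2-fold higher and 1 lower. The other 9 of the 20 listed, among them Srebf1 and Mlxipl, did not reach 20 CPM.

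Of the genes that bring fatty acids into the cell, make them and assemble triglyceride, 5 of 10, 8 of 16 and 6 of 10 counted members in that order were at least 2-fold higher. Lpl, the lipase that frees fatty acids from lipoproteins, stood at 4429.6 CPM on day 6 P-G3 and 1047 CPM on day 3 P-G3 (2.08). The acyl-CoA synthetase gene Acsl1 (1.71), Fabp4, the transporter gene Cd36 (1.17) and Acsl4 (1.07) were the other members called among 10 counted uptake genes, while the caveolar genes Cav1 (0.07), Cav2 (0.21) and Cavin1 (0.20) lay near 0. In triglyceride assembly, the members called higher were led by Gpd1, which makes glycerol 3-phosphate (2.39), and by Dgat2 (2.37) and Dgat1 (1.76), which add the last fatty acid. The acyltransferase genes Agpat4 (-0.79), Gpat4 (-0.44) and Agpat5 (-0.10) had ratios under 0 that did not reach 2-fold. The 5 others of 15, Gpam, Lpin2, Lpin3, Mogat1 and Pck1, were under 20 CPM.

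At the lipid droplet, Plin1, the coat protein that controls access of lipases (211 CPM on day 6 P-G3 and 45.8 CPM on day 3 P-G3, 2.18), Cidec, which fuses droplets (2.12), and Bscl2, which encodes seipin (1.92), were higher. Plin3, a coat of small droplets and other membranes, lay at -0.49. In this list 5 of 9 counted genes were called higher and none lower. Lipolysis genes showed 5 of 7 called higher, with the monoglyceride lipase gene Mgll at 2.46, Pnpla2, which encodes adipose triglyceride lipase, at 1.94 and Lipe, the hormone-sensitive lipase gene, at 1.47. G0s2, which inhibits adipose triglyceride lipase, stood at 2530.0 CPM on day 6 P-G3 and 880.4 CPM on day 3 P-G3 (1.52). These lipases and the inhibitor were all called higher, while the lipase cofactor gene Abhd5 lay at 0.17.

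Scd1 encodes a desaturase whose products are monounsaturated fatty acids. The gene (ENSMUSG00000037071, on chromosome 19 between 44394455 and 44407879) had 1561 CPM on day 6 P-G3 and 110.4 CPM on day 3 P-G3, against 3210.3 and 121 CPM in the day 6 and day 3 untreated libraries. The day 3 levels lay close together and the day 6 untreated level was the highest of the 4, so the ratio was 3.81 with P-G3 and 4.72 untreated. Fatty acid synthesis genes were at least 2-fold higher in 8 of 16 counted members and lower in none (median 1.04). Thrsp, a lipogenic nuclear protein gene (2.44), Acss2, which activates acetate (1.61), and Fasn, fatty acid synthase (1.30), were called, while Acly (0.49) and Acaca (0.62), which supply acetyl-CoA and malonyl-CoA, were not.

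Cholesterol synthesis genes, which share regulation by SREBP2, were at least 2-fold higher in 9 of 22 counted members and lower in none (median 0.88). Insig1, the sterol-sensing anchor of SREBP (2.00), Idi1 (1.93) and Hmgcs1, which makes HMG-CoA (1.68), led them. Hmgcs1 stood at 211 CPM on day 6 P-G3 and 65.1 CPM on day 3 P-G3. Srebf2 itself lay at -0.21. The Hmgcs1 window is shown as an example of a feature that this list had in common: the letters CCAAT, bound by NF-Y, on either strand occurred in 14 of 15 list members with a RefSeq window, against 37.9% of the first windows of all 27025 genes and 40.2% of those of the counted genes. The feature is not particular to this list or to genes called higher. Endoplasmic reticulum chaperone genes, with a median ratio of 0.04, held CCAAT in 14 of 15 windows. Genes called higher held it in 45.6% and genes called lower in 52.8%. The Hmgcs1 window lies at chr13:119690101-119690400 on the plus strand, and CCAAT or its complement ATTGG is in capitals 4 times. A match describes these letters only.
Hmgcs1: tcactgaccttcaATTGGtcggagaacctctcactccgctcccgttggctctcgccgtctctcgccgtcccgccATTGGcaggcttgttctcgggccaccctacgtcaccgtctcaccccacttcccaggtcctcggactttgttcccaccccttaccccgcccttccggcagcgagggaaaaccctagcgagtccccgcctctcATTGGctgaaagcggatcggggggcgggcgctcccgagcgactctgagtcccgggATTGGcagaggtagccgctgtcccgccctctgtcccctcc

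Breakdown of branched-chain amino acids, which feeds acetyl-CoA and propionyl-CoA into adipocyte lipogenesis, had 11 of 15 counted genes at least 2-fold higher and none lower (median 1.34, and 1.26 untreated). Dbt, the acyltransferase of the branched-chain ketoacid dehydrogenase, stood at 72.8 CPM on day 6 P-G3 and 11.7 CPM on day 3 P-G3 (2.54), and Bcat2, the mitochondrial aminotransferase of the first step, at 386 and 85.2 CPM (2.17). Bckdk, the kinase that turns this dehydrogenase off, lay at 0.09. In the citric acid cycle, 6 of 23 genes were called higher and 22 of 23 lay above 0, led by Pdhb (1.46) and Mdh1 (1.43), and the isocitrate dehydrogenase gene Idh2 lay at -0.32.

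All 48 nuclear genes of the respiratory chain lay above 0 with a median of 0.56, but only 4 reached 2-fold (7 under median-of-ratios scaling), a share near the 7.02% of all counted genes. Cox7a1, the heart and fat isoform of a cytochrome oxidase subunit, was far ahead of the rest at 43.8 CPM on day 6 P-G3 and 1.48 CPM on day 3 P-G3 (4.17), and the cytochrome c gene Cycs was at 1.07. Fatty acid oxidation genes lay above 0 in 17 of 17 and were called higher in 3 (6 under median-of-ratios scaling). Glycolysis genes lay above 0 in 13 of 16 counted members, with a median of 0.43, and Eno1 (-0.36) and Pkm (-0.37) were among those under 0. Of the 16, 1 was called (2 under median-of-ratios scaling), a share near the 7.02% of all counted genes. It was Hk2, the insulin-regulated hexokinase gene (1.62). Thermogenic genes were mostly too low to count: 14 of 17, among them Ucp1, did not reach 20 CPM, and of the 3 counted the potassium channel gene Kcnk3 (1.69) and Cox7a1 were called.

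**Figure D2:**
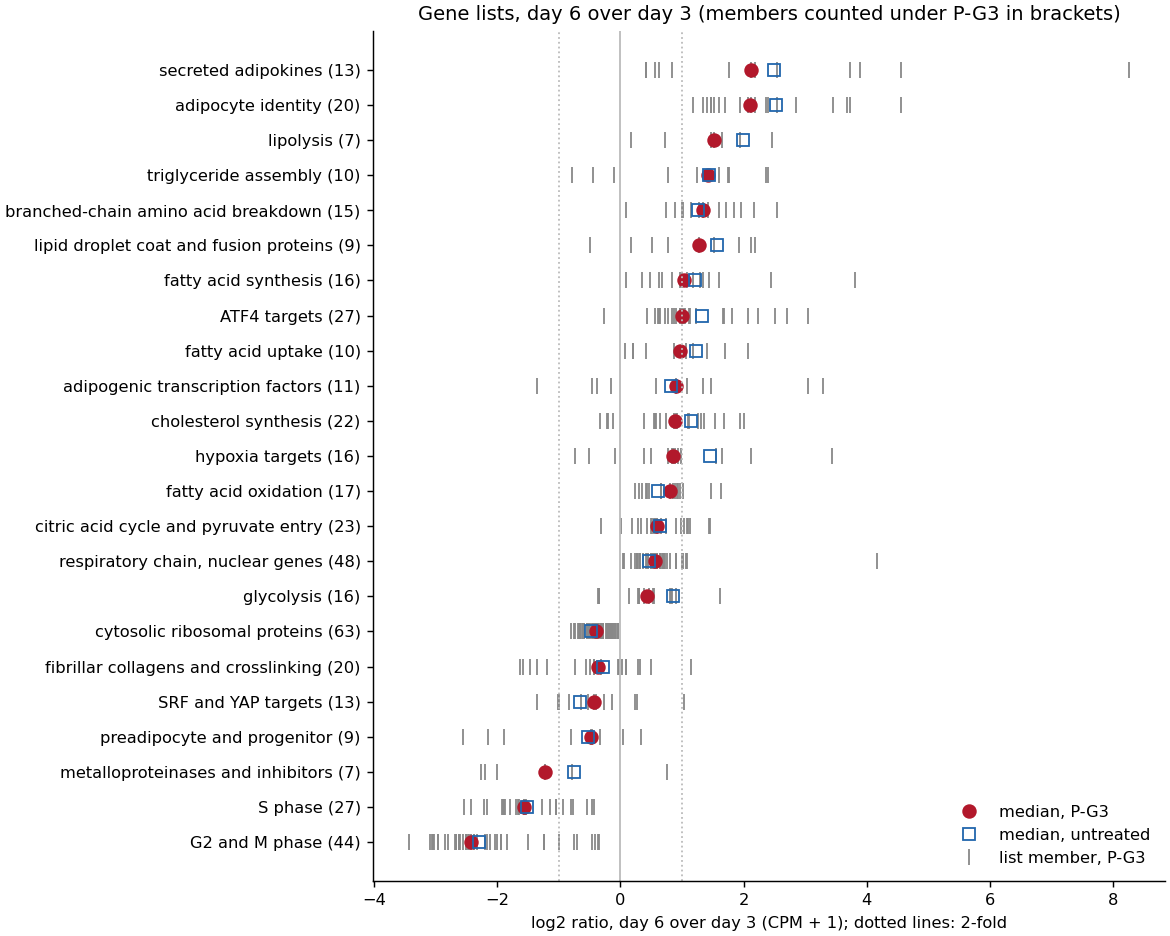
Log2 ratio of day 6 over day 3 (x axis) for 23 gene lists (rows, number of members counted under P-G3 in brackets): grey ticks are members under P-G3, filled circles the P-G3 medians and open squares the untreated medians. Adipocyte identity lies at 2.10 with P-G3 and 2.53 untreated, and G2 and M phase at -2.42 and -2.29.

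ATF4 is the transcription factor of the integrated stress response, translated when amino acids run short or proteins misfold, and 13 of 27 counted ATF4 target genes were at least 2-fold higher and none lower (median 0.99). Besides Ddit3, Ppp1r15a, the phosphatase subunit that reverses the response, stood at 64.8 CPM on day 6 P-G3 and 9.08 CPM on day 3 P-G3 (2.71). Trib3, a pseudokinase induced by ATF4 and CHOP, was at 2.51 and the stress protein gene Nupr1 at 2.24. Atf4 was at 1.05 and the serine hydroxymethyltransferase gene Shmt2 at -0.27.

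Endoplasmic reticulum chaperone genes split, with 3 of 17 called higher and 2 lower, or 4 and 1 under TMM scaling (median 0.04). Ero1l, the oxidase that helps form disulfide bonds in secreted proteins, stood at 627 CPM on day 6 P-G3 and 56.9 CPM on day 3 P-G3 (3.44), against 930.4 and 44.5 CPM untreated (4.36). Xbp1 (1.10) and Dnajb9 (1.05), of the IRE1 branch, were called higher. The calcium-binding chaperone gene Calr was lower, at 308 CPM on day 6 P-G3 and 746 CPM on day 3 P-G3 (-1.27), as was Creld2 (-1.02), and the major chaperone gene Hspa5 lay at 0.39. Hypoxia targets were called higher in 4 of 16 counted members and lower in none (median 0.86): Ero1l, Vegfa, the mitophagy gene Bnip3 (1.65) and the prolyl hydroxylase gene Egln3 (1.54).

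Glucocorticoid targets, listed because the cocktail holds dexamethasone, went both ways: 3 of 17 counted members were called higher and 5 lower, or 3 and 3 under TMM scaling. Hsd11b1, which regenerates active glucocorticoid inside the cell, stood at 239 CPM on day 6 P-G3 and 49.4 CPM on day 3 P-G3 (2.25). Tsc22d3, which encodes GILZ (-1.68), Sgk1 (-1.62) and Fkbp5 (-1.29) were lower. Among 23 counted antioxidant and NRF2 target genes 5 were called higher and none lower, led by the carbonyl reductase gene Cbr1 (2.39), whereas Nqo1 lay at -0.51.

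Cell division genes were the lowest group. Of 57 G2 and M phase genes 44 were counted, and 37 of these were at least 2-fold lower and none higher, with a median of -2.42. Nusap1, a spindle protein gene, stood at 8.04 CPM on day 6 P-G3 and 96.4 CPM on day 3 P-G3 (-3.43), and Ube2c, which loads ubiquitin onto mitotic cyclins, at 36.9 and 316 CPM (-3.07). Mki67, which encodes the Ki-67 antigen, stood at 8.83 CPM on day 6 P-G3 and 75.6 CPM on day 3 P-G3 (-2.96). The untreated libraries stood at close values, with Nusap1 at 8.20 CPM (day 6) and 98.6 CPM (day 3) and Mki67 at 11.6 and 89.2 CPM. The 7 counted members within 2-fold were Ckap5, Anp32e, Cbx5, Cks1b, Ctcf, Tubb4b and Rangap1, several of which also act outside mitosis.

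The promoters of these genes are shown because they held a shared run of letters. The letters TTTGAA, the core of the cell cycle homology region (CHR) through which the DREAM complex silences mitotic genes, occurred on either strand in 30 of the 38 counted G2 and M phase genes with a RefSeq window (78.9%). This compares with 18.1% of the first windows of 27025 genes, 11.7% of those of counted genes and 3 of 20 of those of counted S phase genes. CCAAT occurred in 31 of the 38 and in 16 of 20 S phase windows. In the 3 windows below, from RefSeq on GRCm38.p6, capitals mark TTTGAA or its complement TTCAAA and CCAAT or ATTGG. Ube2c lies at chr2:164769679-164769978 on the plus strand, Cdc20, which encodes the activator of the anaphase-promoting complex (ratio -2.37), at chr4:118437294-118437593 on the minus strand, and Cenpf, a kinetochore protein gene (-3.05), at chr1:189688037-189688336 on the minus strand. The first base of the CHR match lies at -29, -18 and 3 from the start site in that order, and in Ube2c a CCAAT and an ATTGG overlap. A match is a description and no sign of binding.
Ube2c: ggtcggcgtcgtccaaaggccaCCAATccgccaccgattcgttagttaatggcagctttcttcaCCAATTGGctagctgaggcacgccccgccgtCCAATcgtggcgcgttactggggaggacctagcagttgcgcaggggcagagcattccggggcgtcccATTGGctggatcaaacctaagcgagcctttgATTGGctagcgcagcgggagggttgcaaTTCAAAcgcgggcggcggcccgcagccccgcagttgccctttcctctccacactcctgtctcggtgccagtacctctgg
Cdc20: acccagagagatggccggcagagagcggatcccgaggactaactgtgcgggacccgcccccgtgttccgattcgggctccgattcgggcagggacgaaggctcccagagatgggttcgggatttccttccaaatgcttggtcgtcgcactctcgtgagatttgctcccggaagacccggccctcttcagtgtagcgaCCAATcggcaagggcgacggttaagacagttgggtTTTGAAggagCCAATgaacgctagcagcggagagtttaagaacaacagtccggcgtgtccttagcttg
Cenpf: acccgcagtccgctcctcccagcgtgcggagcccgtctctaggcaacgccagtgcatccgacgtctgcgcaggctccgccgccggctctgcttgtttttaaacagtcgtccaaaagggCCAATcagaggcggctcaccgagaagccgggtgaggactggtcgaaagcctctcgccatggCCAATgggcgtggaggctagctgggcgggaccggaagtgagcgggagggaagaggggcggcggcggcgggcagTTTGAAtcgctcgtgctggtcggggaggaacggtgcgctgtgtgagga

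S phase genes were at least 2-fold lower in 21 of 27 counted members and higher in none (median -1.56). Mcm5, a subunit of the replicative helicase (-2.54), Clspn, a replication checkpoint gene (-2.42), and Rrm2, which makes deoxynucleotides (-2.22), were lowest among those named. Histone genes that are made in S phase had the lowest ratios of those named, Hist1h2ap at 26.0 CPM on day 6 P-G3 and 343 CPM on day 3 P-G3 (-3.67) and Hist1h1b at -3.47. These belong to families of near-identical genes, so their counts are uncertain. The DNA clamp partner gene Pclaf (-3.18), the apoptosis inhibitor and spindle gene Birc5 (-3.02) and the tubulin-binding gene Stmn1 (-2.98) were also among the 10 lowest. Of the regulators of cell cycle entry, Ccnd1, which encodes cyclin D1, was lower at 23.6 CPM on day 6 P-G3 and 123 CPM on day 3 P-G3 (-2.34), with Gas1 (-2.84) and E2f1 (-1.19). Btg2, an antiproliferative gene, was higher (1.98), and Cdkn1a, the gene of p21, lay at 0.41.

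Matrix and fibroblast genes fell in part. S100a4, a calcium-binding protein gene of fibroblasts, stood at 193 CPM on day 6 P-G3 and 1588 CPM on day 3 P-G3 (-3.03), and Mgp, which encodes matrix Gla protein, at 11.2 and 107 CPM (-3.14). Metalloproteinases and their inhibitors were at least 2-fold lower in 5 of 7 counted members (median -1.23), namely Timp2 (-2.27), Timp1 (-2.19), Adamts1 (-2.01), Mmp14 (-1.23) and Mmp2 (-1.23). Timp4, an inhibitor made by fat tissue, lay at 0.76. In the progenitor list 3 of 9 counted genes were lower, Hmga2, a chromatin gene of growing cells (-2.56), the growth factor receptor gene Pdgfra (-2.15) and Sox9 (-1.89), while Dlk1, which encodes the adipogenesis inhibitor Pref-1, stood at 258 CPM on day 6 P-G3 and 453 CPM on day 3 P-G3 (-0.81).

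Of 13 counted genes of collagen chains, 1, Col15a1, was at least 2-fold higher and none lower. Col1a1 stood at 168 CPM on day 6 P-G3 and 174 CPM on day 3 P-G3 (-0.04), and at 506 and 468 CPM untreated (0.11). The P-G3 levels lay under the untreated ones on both days. Among cells with at least 10000 UMIs, though, the median Col1a1 level was 32.4 CPM on day 6 P-G3 and 131 CPM on day 3 P-G3. The genes that process and crosslink collagen were the ones called lower, Lox (-1.58) and Loxl1 (-1.35), which crosslink the fibres, and Pcolce, which speeds trimming of procollagen (-1.63), together with Postn (-1.47) and Dcn (-1.19), so that 5 of 20 counted members were lower and 1, the lysyl hydroxylase gene Plod1 (1.15), was higher. Basement membrane genes held 2 higher members of 10, Npnt, which encodes nephronectin (2.14), and Col15a1 (1.91), and none lower, with Col4a1 at -0.42. Targets of SRF and YAP, the actin-regulated factors, were lower in 3 of 13, or 1 under TMM scaling, and higher in 1, Amotl2 (1.04).

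Cytosolic ribosomal protein genes lay under 0 in 63 of 63 members, or in 61 under TMM and 58 under median-of-ratios scaling, with a median of -0.39 and none past 2-fold, and made up 184480 CPM on day 6 P-G3 against 242650 CPM on day 3 P-G3 as a sum. The median was -0.33 under TMM and -0.28 under median-of-ratios scaling. Many of these genes have processed pseudogenes, so single values are uncertain.

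Markers of other cell types were low. Summed over their lists in CPM, macrophage genes came to 4.49 on day 6 P-G3 and 3.88 on day 3 P-G3, endothelial genes to 8.12 and 10.9, epithelial genes to 35.0 and 20.2 and erythroid genes to 1.14 and 0.413. No gene of these 4 lists reached 20 CPM, and 5 of 12 macrophage, 4 of 10 endothelial, 2 of 10 epithelial and 5 of 8 erythroid genes had no UMI in either library. Skeletal muscle genes summed to 31.8 and 13.1 CPM, of which Des (1.88) was counted, osteoblast genes to 579 and 773 CPM, mostly Sparc and Spp1, and chondrocyte genes to 21.0 and 58.3 CPM, of which Sox9 was counted. Nuclear-retained RNAs, which are relatively enriched in leaky cells, included Malat1 at 3601 CPM on day 6 P-G3 and 3625 CPM on day 3 P-G3, while Neat1 (-1.08) and Kcnq1ot1 (-1.36) were lower. The part of these RNAs and of the many small day 6 barcodes in the results was not tested beyond the choices of cells given above and below.

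To set single cells side by side at 1 depth, each was thinned to 1000 UMIs, which left out 159 of the day 6 P-G3 cells and 8 of the day 3 P-G3 cells. Adipoq was then found in 34.5% of 3387 cells on day 6 (exact 95% interval 32.9% to 36.1%) and 3.32% of 3885 cells on day 3 (2.78% to 3.93%). Without thinning these were 64.5% and 29.6%, at median depths of 16657.5 and 40306 UMIs. Among preadipocyte-like cells, the share at this depth was 3.01% of 366 cells on day 6 (median 27450 UMIs) and 0.277% of 1443 on day 3 (28221 UMIs). Adipoq is one of the markers by which cells were classed, so this share is no independent background. A UMI of any of 6 mitotic genes (Mki67, Top2a, Ccnb1, Cdk1, Ube2c, Birc5) was found in 7.32% of day 6 cells (interval 6.47% to 8.25%) and 34.1% of day 3 cells (32.6% to 35.6%). Without thinning these were 45.4% and 88.7%. In preadipocyte-like cells the thinned shares were 2.19% and 9.77%. The 6 genes are among the dividing cell markers used to class cells, so these class shares are no independent background either.

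Ghrh followed the same pattern more steeply. It was found in 21.5% of thinned cells on day 6 and in 2 of 3885, or 0.0515%, on day 3, against 2.19% and 0 of 1443 of preadipocyte-like cells. The 0 allows up to 0.208% of cells with a UMI at this depth, and without thinning 0.277% of these day 3 cells had one. Over all cells the shares without thinning were 50.9% and 1.85%. Its molecules were unevenly spread on day 6: among the 1881 cells with at least 10000 UMIs, the tenth of cells with most Ghrh held 75.1% of its UMIs, against 37.1% for Adipoq and 29.4% for Fabp4. The 12 adipocyte markers together had a median of 6 UMIs per 1000 in day 6 cells and 0 in day 3 cells, and were at 0 in 8.65% and 57.6% of cells. For the 12 dividing cell markers 90.4% of day 6 cells and 60.6% of day 3 cells were at 0, and for the 12 preadipocyte markers 73.3% and 41.8%. Both libraries thus held cells with adipocyte markers, and the day 6 cells had more of them.

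**Figure D3:**
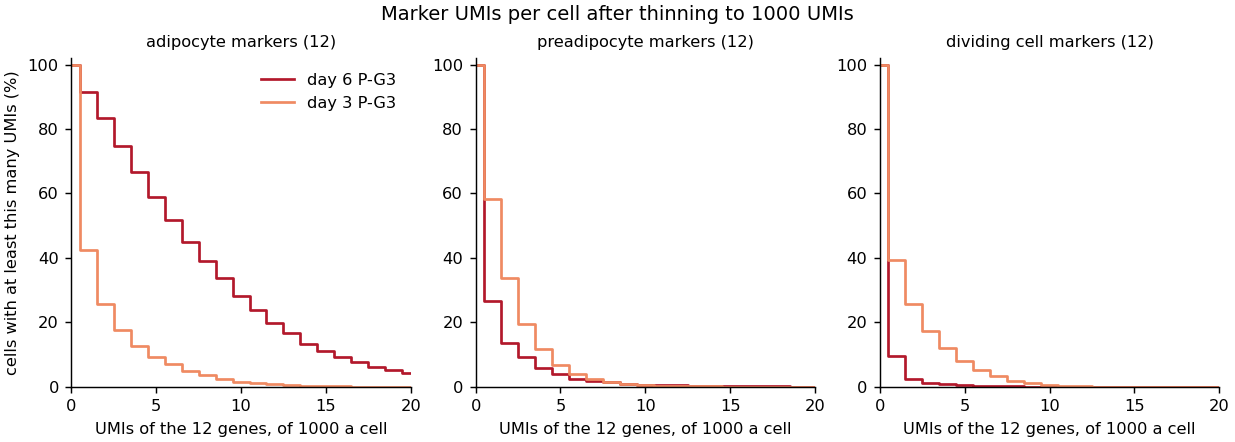
Share of cells (y axis, %) with at least a given number of UMIs (x axis) of 12 adipocyte, 12 preadipocyte or 12 dividing cell markers after each cell was thinned to 1000 UMIs, for day 6 P-G3 and day 3 P-G3. The day 6 line lies above the day 3 line for adipocyte markers (median 6 against 0 UMIs) and under it for dividing cell markers (90.4% against 60.6% of cells at 0).

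Ratios were also formed within classes of cells, named from clusters of each library alone by fixed markers. Adipocyte-like cells were 1050 on day 6 P-G3 (clusters 2 and 5 of that library) and 454 on day 3 P-G3 (cluster 0), preadipocyte-like cells 366 (cluster 7) and 1444 (clusters 3, 4 and 8). Different clusters hold the class on the 2 days, and 2076 cells on day 6 and 1113 on day 3 stayed unnamed. Cluster 8 of day 3, with 207 cells, held no preadipocyte marker among its 10 leading genes, which included the mitotic genes Ccnb2, Cdkn3 and Pttg1. The thinned mitotic share of day 3 preadipocyte-like cells was 6.15% without it. Day 3 cluster 4 and day 6 clusters 2 and 5 also held no marker of their class among their 10 leading genes. Day 6 cluster 5, with 500 cells, led in 3 of the 12 adipocyte markers, the fewest that give a name. Only lists without any of the naming markers are given. In adipocyte-like cells the medians of branched-chain amino acid breakdown (1.20), fatty acid synthesis (0.84), cholesterol synthesis (0.72) and ATF4 targets (0.58) were above 0 and under those over all cells. In preadipocyte-like cells the first 3 were 0.26, 0.23 and 0.00, whereas ATF4 targets had 1.33 and hypoxia targets 0.84. With coarser clusters (Leiden resolution 0.5) the cholesterol synthesis median was 0.59 in adipocyte-like and 0.34 in preadipocyte-like cells, and it was 0.17 in preadipocyte-like cells without cluster 8.

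Single genes differed in this respect. Scd1 had a ratio of 2.62 in adipocyte-like and 2.34 in preadipocyte-like cells, Fasn 0.86 and -0.22, and Dbt 1.76 and 0.82. Trib3 had 1.24 and 3.90, Ero1l 2.43 and 3.58, and Ddit3 2.40 and 2.40. Fasn and Dbt thus had the higher ratio in adipocyte-like cells, Trib3 and Ero1l in preadipocyte-like cells, and Scd1 and Ddit3 had close ratios in both. Ribosomal protein genes had a median ratio of -0.43 in adipocyte-like cells and -0.03 in preadipocyte-like cells, and S phase genes -0.65 and -0.60 (-0.39 without cluster 8). Class names were rebuilt here from markers and are no annotation of the authors.

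**Figure D4:**
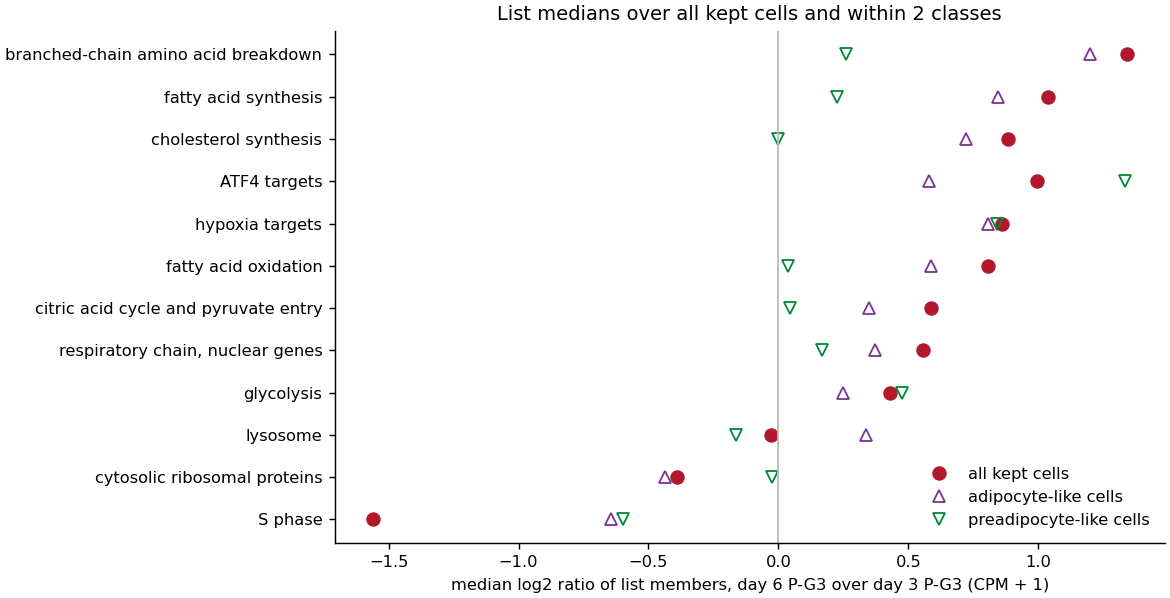
Median log2 ratio of day 6 P-G3 over day 3 P-G3 (x axis) for 12 gene lists (rows) over all kept cells (filled circles), in adipocyte-like cells (triangles pointing up) and in preadipocyte-like cells (triangles pointing down). Cholesterol synthesis lies at 0.88 over all cells and 0.72 in adipocyte-like cells, and ATF4 targets reach 1.33 in preadipocyte-like cells.

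Set beside the same step without the polymer, the step under P-G3 was alike for most genes. The 2 steps share no library. Of 5936 genes counted in the untreated step, 464 (7.82%) were called higher and 300 (5.05%) lower on day 6. Over the 5052 genes counted in both steps, the ratios had a Pearson correlation of 0.955 and a Spearman correlation of 0.928 across genes, which are not independent replicates. Of genes called higher under P-G3, 312 of 348 (89.7%) were also called untreated, which is 74.5% of the 419 called untreated. For genes called lower, the shared 210 were 70.5% of the 298 under P-G3 and 94.2% of the 223 untreated. No gene was called in opposite directions.

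The difference between the 2 ratios, P-G3 step minus untreated step, reached 1 in 4 of 6029 genes (0.0663%) and -1 in 10 (0.166%). It moved with transcript length, with a Spearman correlation of -0.28 over 6029 genes, and removing the median of each length bin kept the sign of all 20 differences named by size and shifted them by at most 0.18. Its median over all genes was -0.09, and 0.00 under TMM scaling. Acta2, which encodes smooth muscle actin, stood at 209 CPM on day 6 P-G3 and 229 CPM on day 3 P-G3, against 247 and 571 CPM untreated. Only the day 3 untreated library was high, and the difference was 1.08 (1.12 with the length trend removed). The other 3 genes past 1 lie under the 50 CPM asked of named genes and were chosen after their values were seen: Depp1 (26.2 CPM on day 6 P-G3 and 0.285 CPM on day 3 P-G3, against 5.78 and 0.372 CPM untreated), the growth factor gene Igf1 (difference 1.66) and Ly6c1 (1.32).

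Among the other largest differences were Ly6a, which encodes the progenitor surface marker Sca-1 (0.87), Anxa1 (0.79), the complement gene C3 (0.72), the scaffold gene Mpp1 (0.61) and genes of metabolic enzymes: the thiosulfate sulfurtransferase gene Tst (0.79), the aldehyde dehydrogenase gene Aldh1a7 (0.73), Selenbp1 (0.71), Cdo1, which oxidises cysteine (0.69), and Cbr1 (0.66). Cbr1 stood at 512 CPM on day 6 P-G3 and 96.8 CPM on day 3 P-G3, against 206 and 61.3 CPM untreated, with day 6 P-G3 the highest of the 4. At the other end, Timp4 stood at 40.7 and 23.7 CPM with P-G3 on day 6 and day 3, against 54.1 and 14.1 CPM untreated (-1.11). Spp1, which encodes osteopontin, was at 52.1 and 69.2 CPM with P-G3 and at 64.9 and 39.8 CPM untreated (-1.09). Hist1h2ap (-1.58), Trib3 (-1.07), Mgp (-1.04), Cxcl12 (-0.92), Ero1l (-0.92), Scd1 (-0.91), Peg10 (-0.95) and Cyp1b1 (-0.90) also had smaller ratios under P-G3.

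By list, the hypoxia targets differed most among the lists with at least 10 members counted: the median difference was -0.55, under 0 in 16 of 16 members (16 under TMM scaling), and -0.45 under TMM scaling and -0.47 with the length trend removed, beside -0.08 over the 5052 genes counted in both steps. In the untreated step 11 of 16 hypoxia targets were called higher, against 4 under P-G3. The median differences were -0.37 for glycolysis, under 0 in 16 of 16 (14 under TMM scaling), and -0.36 for adipocyte identity, under 0 in 17 of 20 members (15 under TMM scaling). Other lists were of this size. Secreted adipokines had -0.41, under 0 in 9 of 12 members (8 under TMM scaling). Fatty acid uptake had -0.37, under 0 in 10 of 10 (8 under TMM scaling), and mitochondrially encoded genes -0.36, under 0 in 12 of 13 (9 under TMM scaling). Over the 5052 genes 64.2% had a difference under 0, or 46.9% under TMM scaling. Fatty acid oxidation (0.17) and the respiratory chain (0.10) lay above 0. For adipocyte identity the day 3 level with P-G3 was already higher, the list summing to 14523 CPM against 9755 CPM in the day 3 untreated library, most of it Fabp4. Hypoxia targets summed to 2794.9 CPM on day 3 P-G3 and 1703.5 CPM on day 3 untreated, and to 4981.5 and 4650.7 CPM on day 6. Glycolysis genes summed to 13687 and 8555.9 CPM on day 3, and to 20544 and 15195 CPM on day 6. The smaller steps of these lists under P-G3 thus began from higher day 3 sums.

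**Figure D5:**
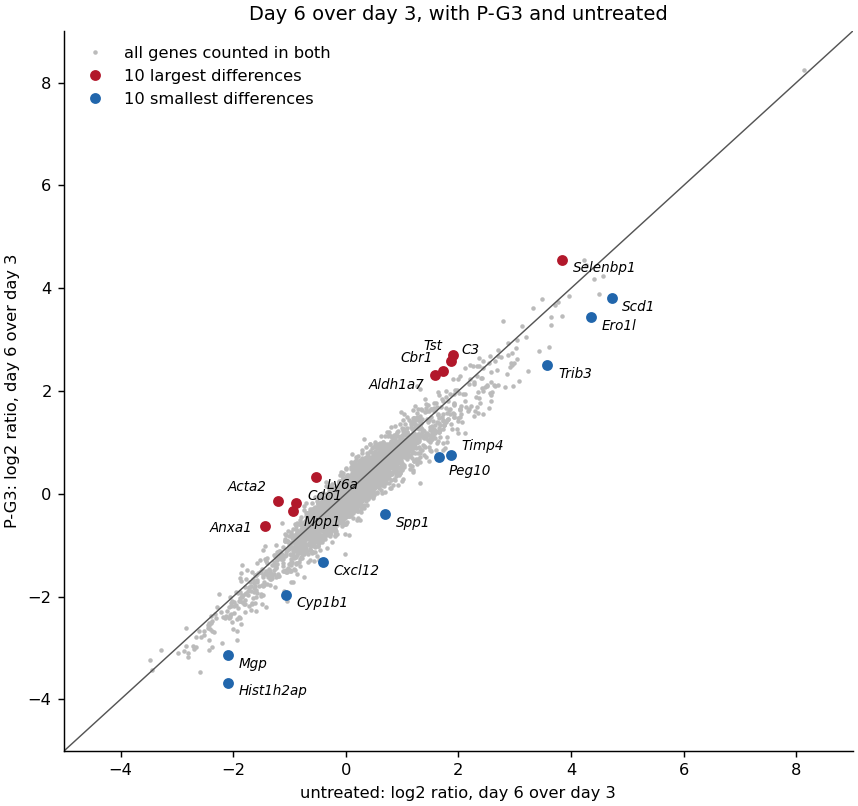
Log2 ratio of day 6 over day 3 with P-G3 (y axis) against the untreated ratio (x axis) for 5052 genes counted in both steps (grey points), with the 10 largest (red) and 10 smallest (blue) differences among genes with at least 50 CPM named; the line marks equal ratios. Most genes lie near the line (Pearson correlation 0.955), with a difference of 1.08 for Acta2 and -1.11 for Timp4.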

How the data were processed

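Single cells freed with trypsin were made into 10x Genomics 3' libraries, 1 a group. The authors deposited UMI counts per gene and barcode, not normalized. Cell Ranger 3.1.0 and GRCm38 are named in the submitters' processing notes, while the matrix headers name Cell Ranger 5.0.1; the annotation release is not given in the sources used here. The labels name no batch or replicate.

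Barcodes were kept from 500 detected genes up and to a limit of 20% mitochondrially encoded UMIs, with no removal of doublets, and counts were summed per library to CPM. The kept libraries held between 88432894 and 179221992 UMIs, so 3 UMIs, the limit that a count of 0 allows, equal 0.0279 CPM on day 6 P-G3 and 0.0167 CPM on day 3 P-G3. A gene was counted in a step when one or both of its libraries reached 20 CPM, and called at 2-fold after a pseudocount of 1 CPM; with 1 library a group no p-value was computed. Intervals are exact 95% ones. TMM factors came from edgeR 4.0.16 in R 4.3.3. Where a symbol had several gene IDs, the row with most UMIs was used. Clusters were made in each library alone (Leiden resolution 1) and named by fixed markers. Gene positions are from GENCODE M21 and promoter windows from RefSeq. Python 3.11.15, numpy 2.4.6, scipy 1.17.1, pandas 2.3.3, scanpy 1.11.5 and matplotlib 3.10.9 were used, and the ratio steps were tested on simulated counts.

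The genes named in full are the 10 highest and 10 lowest ratios and the 10 largest and smallest differences between steps at 50 CPM or more with 1 direction under 3 scalings, up to 4 members with the largest ratios per list, and a set of anchor genes; other list members are given to account for the list. Genes, lists and members were chosen with earlier results of these data known. Alternatives covered scaling, the filter, the pseudocount, cell filters, cell depth, cell weights, thinning and cluster resolution.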

Additional observations from a re-analysis of the deposited data

Results flagged for a closer look

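The 2 steps from day 3 to day 6 moved in opposite directions for 4 of the genes picked by the naming rule and counted in both steps, and the difference was not tested, since there is 1 library a group. Spp1, the osteopontin gene, had a ratio of -0.40 with P-G3 and 0.69 untreated, a difference of -1.09. Ly6a, the Sca-1 gene, had 0.33 with P-G3 and -0.53 untreated, a difference of 0.87. Hspg2, which encodes the basement membrane proteoglycan perlecan, had -0.38 and 0.04 (-0.42), and Col1a1 -0.04 and 0.11 (-0.16). Under TMM scaling Col1a1 was above 0 in both steps, at 0.02 and 0.07. TMM scaling took the median of the untreated step from 0.07 to 0.03, a shift of the size of the untreated Hspg2 ratio, so the direction of that ratio is uncertain. All ratios of these 4 genes lie within 2-fold.

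The barcodes left out of the day 6 P-G3 library held adiponectin RNA. Adipoq stood at 545.5 CPM in them, 1815 of 3327440 UMIs, against 123 CPM in the left-out barcodes of day 3 P-G3, 460.3 CPM in those of day 6 untreated and 0 UMIs in those of day 0, which allows up to 41.2 CPM.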

How the results depend on the processing

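The number of called genes followed the filter on low values. With 5 CPM in place of 20 CPM, 543 genes were higher and 636 lower under P-G3 and 567 lower untreated, and 13 genes had a step larger and 18 a step smaller under P-G3 by 2-fold; with no filter these were 648, 816, 691, 20 and 25, and 797 were higher untreated. Of the 10 genes with a step smaller by 2-fold, TMM scaling left 5 such genes, median-of-ratios scaling 3 and a pseudocount of 5 CPM 5 by count, while cells with 30000 to 60000 UMIs gave 46. The genes with a larger step, 4 in number, were 7 in those cells and 2 with equal weight per cell. At 500 UMIs, 3000 UMIs and without thinning, Adipoq was found in 21.5%, 59.6% and 64.5% of day 6 P-G3 cells and 1.52%, 7.72% and 29.6% of day 3 P-G3 cells, and a mitotic gene in 4.15%, 15.7% and 45.4% of day 6 and 24.4%, 50.9% and 88.7% of day 3 P-G3 cells. The cause was not tested.

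The 129 named genes called under P-G3 kept their direction in 1677 of 1677 comparisons, of which 43 fell under 2-fold. Many of these comparisons could not have turned a gene. The filter leaves a gene's ratio as it is, and a pseudocount cannot change its sign. The 2 scalings shift all ratios by nearly the same small amount. Only the choices and weights of cells and the removal of the length trend could have reversed a called gene. Reversal of a list median was looked for only where it was 1 or more in size, and none reversed. Some medians nearer 0 did change sign. With equal weight per cell the endoplasmic reticulum chaperone median turned from 0.04 to -0.39 and the basement membrane median from 0.15 to -0.37. The adipocyte identity median ranged between 2.01 and 3.03 and the G2 and M phase median between -2.90 and -1.97. Sizes often moved. Over all kept cells 972 of 2275 comparisons of named gene ratios moved, as did 107 of 260 of step differences and 257 of 520 of list medians. Values within rebuilt cell classes moved in 67 of 90, single genes beyond their counting error and list medians past a small fixed limit. The class values include the preadipocyte-like class without cluster 8 of day 3, chosen after seeing the data. No paired analysis was possible because each group has 1 library. With 1 library a group, differences between cultures and between libraries cannot be told apart from those between days.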

Other observations

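Ghrh was unevenly spread on day 6, though a UMI was found in 67.5% of the day 6 P-G3 cells with at least 10000 UMIs. Fibroblast genes were unevenly spread too. Among 1881 day 6 P-G3 cells and 3675 day 3 P-G3 cells with at least 10000 UMIs, the tenth of cells with most of the gene held 93.7% of Mgp UMIs on day 6 and 69.4% on day 3. For S100a4 these shares were 66.9% and 27.9%, and the median level among cells was 17.3 and 1592 CPM. For Acta2, whose summed level differed little between the days, the shares were 86.1% and 67.5%. Fabp4 went the other way, with 29.4% on day 6 and 53.8% on day 3. Such a share also depends on how many cells had the gene at all. A UMI was found in 13.9% of these cells on day 6 and 54.9% on day 3 for Mgp, 58.4% and 99.3% for S100a4 and 36.2% and 61.4% for Acta2.

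Lysosomal genes were called lower in 1 of 20 counted members, Gusb (within 2-fold under TMM scaling), and higher in none; the cathepsin gene Ctsl stood at 351 CPM on day 6 P-G3 and 214 CPM on day 3 P-G3 (0.71). Of polyamine genes, listed because P-G3 is a polycation, Sat1, which acetylates spermidine and spermine, was the one called higher of 9 counted (1.17), with 1.04 untreated. Heparan sulfate proteoglycan genes had 0 of 8 and NAD genes 0 of 5 counted members past 2-fold. Interferon-induced genes had 4 of 20 counted, with Ifi27 at 1.12 and Ifitm3 at -1.29, and of inflammation genes 2 of 20 were counted, with Cxcl12 at -1.34. TGF-beta targets were lower in 3 of 8, among them Id3, an inhibitor of helix-loop-helix factors (-1.49). In insulin-dependent glucose uptake, 2 of 7 counted members were called higher, among them Slc2a4, and Irs2 lay at 0.63.

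Mitochondrially encoded genes had 0 of 13 members past 2-fold (1 under TMM scaling) and summed to 59878 CPM on day 6 P-G3 and 60239 CPM on day 3 P-G3. Immediate early and heat shock genes, which can mark dissociation, were lower in 2 of 10 counted, Junb (-1.06) and Hsph1 (-1.15), and p53 and apoptosis genes had 0 of 7 past 2-fold. Ddit3, thinned to 1000 UMIs a cell, was found in 25.3% of day 6 P-G3 cells and 3.81% of day 3 P-G3 cells, or 72.5% and 57.2% without thinning.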
